A study of Mus musculus with 6 samples.

Results

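Rab GTPases, the small G proteins that mark the membranes of the secretory and endocytic routes, were followed on 6 expression arrays of mouse proximal colon. The members are all probe sets whose only gene symbol in the platform annotation is Rab followed by a number and at most a letter and a further number. This rule found 95 probe sets for 50 Rab genes, among 22626 probe sets and 12393 genes with a symbol of their own. It used no measured value, though it was chosen with earlier results of these data known. Of the 95, 72 probe sets of 43 genes had a mean log2 signal at or above the 40th percentile and entered the tests. The gene table holds 59 protein-coding Rab genes, and the other 9 were not analysed here.

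The 3 wild-type mice (wt) and the 3 mice of genotype Mthfd1/+ were 8 weeks old and had eaten the same control diet for 5 weeks after weaning. The heterozygous line came from gene-trap mice of BayGenomics and keeps an intact Mthfd1 allele. The labels name no strain or sex and do not say where in the gene the trap sits. Mthfd1, a folate enzyme, read 838.6 to 949.9 in wild-type and 453.1 to 549.4 in heterozygous arrays at its brightest probe set (log2 difference -0.80, limma adjusted p = 0.121), and its other 2 probe sets were also lower without overlap. Arrays correlated at 0.959 to 0.981 within a genotype and 0.961 to 0.982 between genotypes, across probe sets, which are not independent replicates. Absorptive colonocyte markers were bright, with all 6 of the list past the filter, whereas 0 of 4 measured exocrine pancreas markers passed.

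A Rab protein works as a switch. Bound to GTP it sits in a membrane by its prenylated tail and recruits effectors such as tethers and motors, and after GTP hydrolysis a GDP dissociation inhibitor (GDI) lifts it off. Exchange factors and GTPase-activating proteins set where and when the switch turns. Each Rab marks its own compartment: Rab1 and Rab2 serve traffic between endoplasmic reticulum and Golgi, Rab5 the early endosome, Rab11 and Rab25 the recycling endosome of epithelia, Rab7 the late endosome, and Rab3 and Rab27 the secretory granule. In the gut wall, colonocytes, mucus-secreting goblet cells, hormone-secreting enteroendocrine cells, neurons and muscle all hold Rab proteins, in different mixtures.

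Promoters of 4 members are shown because these genes stand for the patterns below. Rab1a had the brightest signal, Rab25 belongs to epithelia, Rab3d is a granule Rab, and Rab15 is the member near Mthfd1. Each run is the 250 bases before a RefSeq start, 5′ to 3′ along the gene, in GRCm38.p6. Rab15 lies on the minus strand at chr12:76822525-76822774, the first of its 4 listed starts. Rab1a is at chr11:20201162-20201411 on the plus strand, Rab25 at chr3:88548280-88548529 and Rab3d at chr9:21918184-21918433 on the minus strand. Capitals mark the GC box GGGCGG on either strand, the 1 motif of the 5 searched that was found in them.
Rab1a: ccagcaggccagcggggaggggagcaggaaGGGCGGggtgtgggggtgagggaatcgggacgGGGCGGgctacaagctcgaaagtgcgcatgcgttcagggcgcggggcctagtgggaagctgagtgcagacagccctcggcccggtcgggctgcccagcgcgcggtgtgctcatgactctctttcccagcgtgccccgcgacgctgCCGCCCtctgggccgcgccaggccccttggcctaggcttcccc
Rab25: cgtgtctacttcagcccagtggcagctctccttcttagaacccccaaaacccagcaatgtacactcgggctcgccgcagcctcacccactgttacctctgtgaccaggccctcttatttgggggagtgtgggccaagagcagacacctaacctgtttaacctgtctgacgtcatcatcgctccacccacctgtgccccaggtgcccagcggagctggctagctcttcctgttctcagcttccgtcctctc
Rab3d: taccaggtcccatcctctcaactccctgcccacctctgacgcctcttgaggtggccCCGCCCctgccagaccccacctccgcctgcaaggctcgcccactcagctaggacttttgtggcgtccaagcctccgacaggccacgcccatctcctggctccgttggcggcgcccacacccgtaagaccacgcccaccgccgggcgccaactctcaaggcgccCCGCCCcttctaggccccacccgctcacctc
Rab15: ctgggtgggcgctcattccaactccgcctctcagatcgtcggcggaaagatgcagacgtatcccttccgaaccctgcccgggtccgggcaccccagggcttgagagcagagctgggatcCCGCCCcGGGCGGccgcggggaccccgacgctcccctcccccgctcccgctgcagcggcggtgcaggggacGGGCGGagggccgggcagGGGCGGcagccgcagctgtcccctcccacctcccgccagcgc
The Rab15 stretch held 4 GC boxes and 27 CpG pairs, Rab1a 3 and 23, Rab3d 2 and 18, and Rab25 0 and 8. The other motifs searched, on both strands, were the CCAAT box (CCAAT), the TATA box (TATAAA), the E-box (CACGTG) and the palindromic NRF1 motif.

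Of the 50 Rab genes, 42 had a listed promoter. These were rich in CpG, with a median of 17 pairs per 250 bases, against 6 over the first listed promoter of 27025 genes of all kinds, many of them not coding for protein. A GC box stood in 69% of Rab promoters and 32.9% of all, a CCAAT box in 47.6% and 34.5%, a TATA box in 4.76% and 13%, an E-box in 9.52% and 6.05%, and the NRF1 motif in 0% and 0.781%. Among roles, the median CpG count was 23 for 8 genes of the endoplasmic reticulum and Golgi and 20 for 12 recycling genes. It was 10.5 for 6 genes of regulated secretion and 9.5 for 4 late endosomal genes. A match is a string of letters and says nothing of whether a factor binds there.

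Colon signal was highest for Rabs of the main secretory and endocytic routes. Of the 50 genes, 10 had a brightest probe set above the 90th percentile of all probe sets and 27 above the 75th. The order that follows is an order of intensities. Probe sets differ in how well they bind, so it is not an order of transcript number.

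Rab1a, which directs transport from endoplasmic reticulum to Golgi, read 8205.2, 7952.6 and 7838.9 in wild-type replicates 1 to 3 and 7714, 8280 and 6972.5 in heterozygous replicates 1 to 3. Rab2a, which acts between Golgi and endoplasmic reticulum, read 4151, 3900.2 and 4311.6, and 4254.4, 3490.7 and 3561.7. Both had overlapping genotypes, and Rab1a was lowest in heterozygous replicate 3. Rab6a, for traffic within and out of the Golgi, read 2246.2, 2325.9 and 2446.4 in wild-type and 2085, 2524.3 and 2251.2 in heterozygous arrays. Rab18, found on endoplasmic reticulum and lipid droplets, read 2098.6, 2050.8 and 2179.2, and 2170.4, 1911.2 and 2048.7. These 4 were the brightest of the endoplasmic reticulum and Golgi group, and in each the genotypes overlapped.

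The recycling and polarised-traffic Rabs gave 4 of the 10 brightest genes. Rab14, which links Golgi and endosomes, read 4012.4, 3866.1 and 4297.1 in wild-type and 4250.3, 4424.5 and 4466.2 in heterozygous arrays. Rab11a, the recycling endosome Rab, read 4813.4, 4310.2 and 3365.8, and 3850.3, 4064.6 and 3928.6. Its wild-type replicate 3 was the lowest and wild-type replicate 1 the highest of the 6. Rab10, which carries membrane to the basolateral side of epithelial cells, read 2569.4, 2734.4 and 3073.4, and 2806, 2692.2 and 2954.5. Rab25, a close relative of Rab11 limited to epithelia, read 1840.6, 1592.3 and 1691.5, and 1722.5, 1500 and 1632. Rab25 stayed between 1500 and 1840.6 in all 6 mice, and its genotypes overlapped as did those of Rab10, Rab11a and Rab14.

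Each endosomal route had a bright member. Rab7, of late endosomes and lysosomes, read 2633.6, 2439.5 and 2749.3 in wild-type and 2798.1, 2717.7 and 2992.6 in heterozygous arrays. Rab5a, of early endosomes, read 1700.3, 2049.9 and 1869.9, and 1679.8, 2033.3 and 1444. Rab5a therefore had its lowest value in heterozygous replicate 3, and both genes overlapped between genotypes.

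Below these, 17 genes stood between the 75th and 90th percentiles and 16 more passed the filter. Epithelial Rab17, which serves apical recycling, read 806.9 to 1087 over the 6 arrays, and Rab8a and Rab8b, which carry membrane to the surface and to cilia, read 991.6 to 1181.3 and 857.1 to 1382.2. Rab13, of tight junctions, was dimmer at 243.1 to 280.2. Rab3a, of synaptic vesicles, was dim at 110 to 156.2, and so was Rab6b, a neuronal relative of Rab6a, at 86.9 to 135.6. The remaining 7 genes fell below the filter, and their signal was not shown to be above background. They were Rab3b, Rab3c, Rab27a, Rab30, Rab33a, Rab37 and Rab40b, with means over 6 arrays from 17.2 for Rab37 to 96.6 for Rab3b. The granule Rab3b was uneven, at 16.4 and 25.7 in heterozygous replicate 2 and wild-type replicate 3 and 114.6 to 142.8 in the other 4 arrays.

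**Figure D1:**
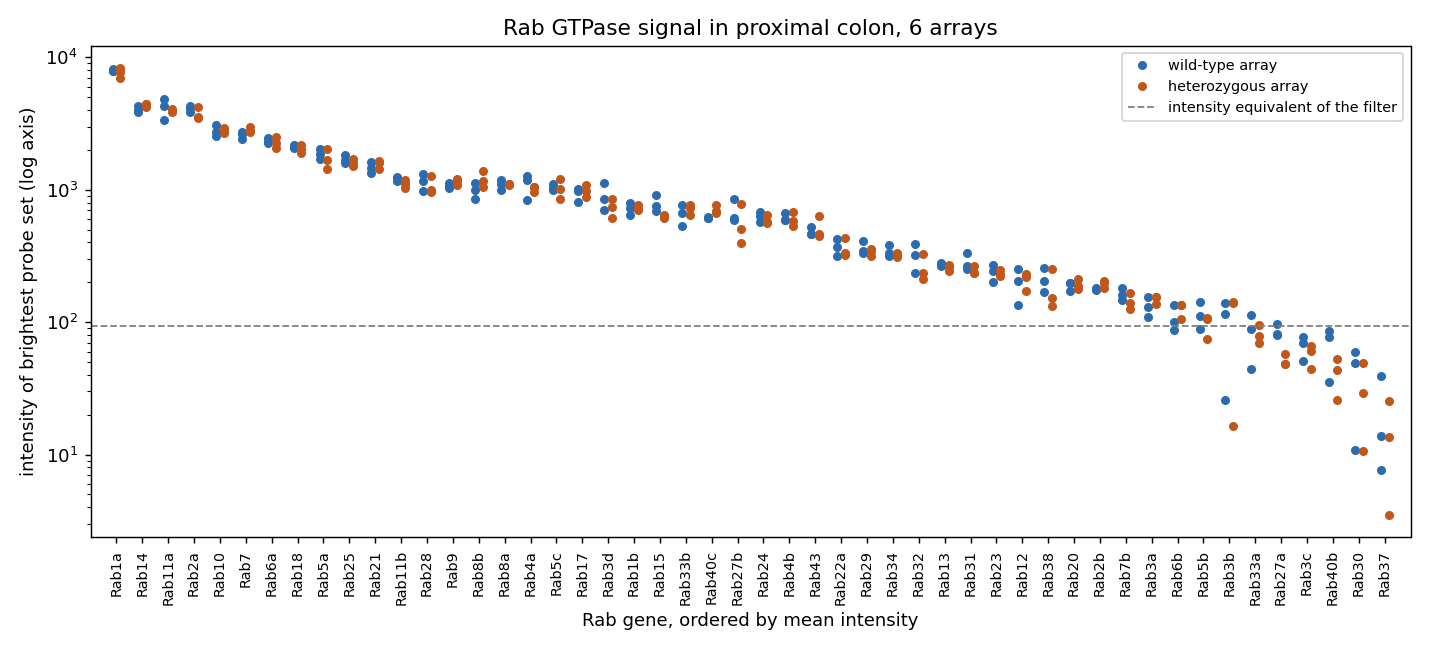
Intensity of the brightest probe set of each of 50 Rab genes on a log axis, ordered by mean, with 3 wild-type (blue) and 3 heterozygous (orange) arrays per gene; the dashed line is the intensity equivalent of the 40th-percentile filter. Rab1a stands highest at 6972.5 to 8280, the genotypes overlap for nearly all genes, and the 7 dimmest genes are those left out of the tests.

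Spread between mice of 1 genotype was modest for most Rab genes and wider for most of those of regulated secretion. The within-genotype SD of log2(signal + 16) had a median of 0.14 over the 43 tested Rab genes and 0.17 over all 8241 tested genes, whose brightest probe sets were also somewhat dimmer (median percentile 72.6, against 79.2 for Rab genes). It ran from 0.06 for Rab13 to 0.39 for Rab27b. By role the median was 0.33 for 5 secretory genes, 0.19 for 6 early endosomal genes, 0.14 for 13 recycling genes and 0.12 for each of the endoplasmic reticulum and Golgi group, the late endosomal group and the remaining group. The secretory genes were also the dimmest group (median percentile 61.8), beside 65.1 for the remaining group and 76.0 to 85.6 for the other roles. The part of intensity in their spread was not tested. Only Rab27b and Rab38 exceeded an SD of 0.34, the 90th percentile over all genes.

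**Figure D2:**
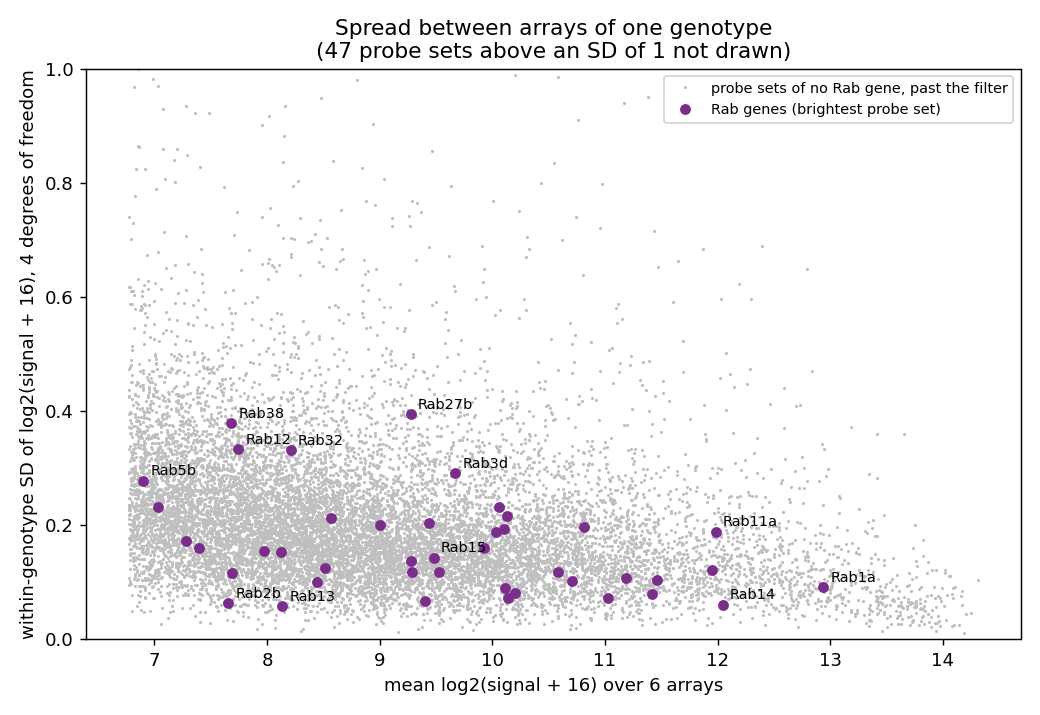
Within-genotype SD of log2(signal + 16) against the mean over 6 arrays, for the brightest probe set of 43 Rab genes (purple) and for the probe sets of no Rab gene past the filter (grey, those above an SD of 1 not drawn). Rab27b at 0.39, Rab38 at 0.38, Rab12 and Rab32 at 0.33 and Rab3d at 0.29 had the widest spread of the Rab genes, while Rab1a and Rab14 varied little.

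At their brightest probe sets Rab27b, Rab3d and Rab38 were high in the same mice, and Rab3b and Rab32 of the same group were not. Rab27b, which docks secretory granules, read 609.2, 592.2 and 851.1 in wild-type and 782.1, 399 and 504.9 in heterozygous arrays. Rab3d, of granules in exocrine and mucus-secreting cells, read 848.8, 707.9 and 1130.3, and 851.2, 607.1 and 743.3. Rab38, of lysosome-related organelles, read 202.8, 170.2 and 258.7, and 254.1, 132.9 and 151.2. In each of the 3, wild-type replicate 3 was the highest wild-type array and heterozygous replicate 1 the highest heterozygous array. The other Rab27b probe set past the filter read 93, 151.6 and 180.2, and 108.2, 77.1 and 110. There heterozygous replicate 3 was slightly above replicate 1. All 4 Rab3d probe sets past the filter were highest of their genotype in wild-type replicate 3 and heterozygous replicate 1. Rab3b, below the filter, was lowest of the wild-type arrays in replicate 3. Rab32, a close relative of Rab38, was lowest in both of those arrays, at 386.4, 324.2 and 235.3, and 210.7, 328.8 and 233.6. Rab12, which sends receptors from recycling endosomes to lysosomes, read 205.5, 134.5 and 251.5, and 231.6, 172.6 and 218.8, and so also peaked in wild-type replicate 3 and heterozygous replicate 1. Over all genes 18.8% peaked in those 2 arrays of their genotypes, as did 9 of 43 Rab genes (20.9%), and 4 of 5 secretory Rab genes, a group singled out after its values were seen. Rab3a was the fourth, with heterozygous replicates 1 and 3 nearly level at 154.4 and 154.

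Some lists of cell type markers were also highest in those mice, and others were not. The summed signal of 6 enteroendocrine markers was 5752.4, 5281.2 and 7977.1 in wild-type and 8101.4, 5048.3 and 4636.3 in heterozygous arrays. For 6 measured enteric neuron markers it was 1130.8, 937 and 1551.9, and 1706, 1229.2 and 1250.7. Both sums were highest in wild-type replicate 3 and heterozygous replicate 1. The sum of 5 smooth muscle markers was 29392 to 40350 in wild-type and 29607 to 35957 in heterozygous arrays, with its top values in the same 2 mice. The sum of 5 measured goblet markers was 49907 in wild-type replicate 3 and 41756 to 43470 in the other 5 arrays. Tff3, the brightest of them, was instead lowest of the wild-type arrays in replicate 3, at 12701. The sum of 6 absorptive colonocyte markers was lowest in those 2 mice, at 34697 and 33411 against 39209 to 44008, although Car4 was highest of all in wild-type replicate 3 (6415.8) and Car1 lowest of the heterozygous arrays in replicate 2 (15443). The sum of 5 ileal enterocyte markers was lowest there too, at 470.1 and 941.7, against 1471.1 to 14419 in the other 4. Apoc3 and Slc10a2 of that list were instead lowest of the heterozygous arrays in replicate 3, at 179.1 and 170.3. The sum of 2 measured adipocyte markers was lowest in wild-type replicate 3 and heterozygous replicate 1, at 10220 and 11427 against 13396 to 16276. Macrophage markers summed to 3982.2 to 4860 in wild-type and 4219.5 to 5698.5 in heterozygous arrays, and endothelial markers to 482.5 to 636.3 and 501.5 to 544.5, with their top wild-type value in replicate 2. None of these markers was at 0. The sum of 5 measured lymphocyte markers, 3 of them past the filter, was 817.5 to 1342 in wild-type and 1333.3 to 2102.2 in heterozygous arrays. Most of it was Ptprc, at 507.8 to 831.2 and 888.4 to 1394.7. The T cell markers Cd3d and Cd3g had higher means in heterozygous arrays (92.9 and 204.0 for Cd3d, 122.2 and 215.9 for Cd3g). These means rest on heterozygous replicates 2 and 3. Replicate 1, at 109.5 and 113.4, lay within the wild-type ranges of 81 to 109.8 and 111.9 to 128.5. The B cell markers Cd79a and Cd79b, both below the filter, had lower means there (64.5 and 55.7 for Cd79a, 92.7 and 80.9 for Cd79b). For Cd79a the wild-type mean rests on replicate 3, at 129.8 against 31.8 in each of the others. The 4 dim exocrine pancreas markers, all below the filter, summed to 65.7 to 74.6 and 25.5 to 44.1. The brightest, Prss2, read 28.7 to 56.3 in wild-type and 8.5 to 35.3 in heterozygous arrays, which overlap. Cela2a was 30.3 in wild-type replicate 2 and 1.3 to 4 in every other array. Ctrb1 had a lower mean in heterozygous arrays (4.1 against 4.9) and Cpa1 a higher one (8.3 against 5.2). The part of these markers in the Rab values was not tested, and in whole tissue fewer cells of a type and less RNA per cell cannot be told apart.

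**Figure D3:**
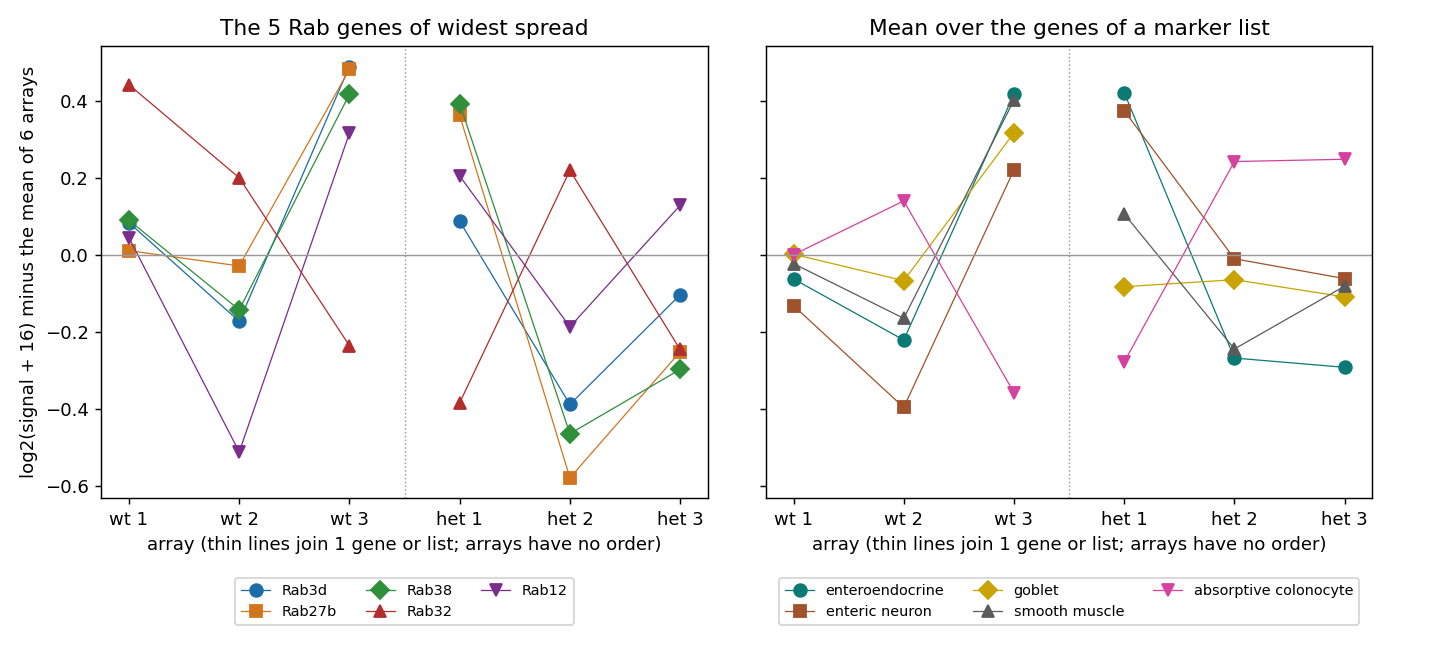
Values per array as log2(signal + 16) minus the mean of the 6 arrays, for the 5 Rab genes of widest spread (left) and the mean over 5 marker lists (right); wild-type (wt) and heterozygous (het) replicates are on the horizontal axis. Rab3d, Rab27b and Rab38 and the enteroendocrine and enteric neuron lists are highest in wild-type replicate 3 and heterozygous replicate 1, where Rab32 and the colonocyte list are lowest in their genotype.

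Heterozygous and wild-type colon were then compared, which asks whether the gene trap in Mthfd1 goes with other levels of the traffic machinery. Differences are heterozygous minus wild-type on the log2(signal + 16) scale, which understates changes of dim genes. Over all 13576 tested probe sets 0 passed a limma adjusted p of 0.05 (0%), whereas 772 (5.69%) had an unadjusted p under 0.05. Of 43 Rab genes 0 passed, and 1 had an unadjusted p under 0.05, Rab15 (lower), where the share over all tested genes was 5.4% (3.18% higher and 2.22% lower). The genotypes did not overlap for 2 Rab genes, Rab15 (lower) and Rab40c (higher), where 10.7% of all genes did the same (5.59% higher and 5.06% lower). The Rab shares were thus no larger than the background.

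Fold changes of Rab genes were small. The median was -0.05 over 43 genes, with 17 positive and 26 negative. Over all tested genes it was 0.01, with 4254 positive and 3987 negative. Genes read in the same mice are not independent. The Rab extremes were -0.31 for Rab27b and 0.27 for Rab8b. None of the 43 exceeded 0.5 in either direction, as 3.07% of all tested genes did. The endoplasmic reticulum and Golgi group of 9 had a median of 0.02 (5 positive), the early endosomal group of 6 a median of -0.09 (1 positive), the recycling group of 13 a median of -0.05 (6 positive) and the late endosomal group of 5 a median of -0.08 (2 positive). The 5 secretory genes had a median of -0.27 (1 positive), which was -0.12 without wild-type replicate 3 and -0.09 without heterozygous replicate 2, each over 6 genes, since Rab3b then passed the filter. The median without each other array is not given here, and single genes moved both ways. Over the settings run, Rab27b ranged from -0.57 to -0.10 and Rab38 from -0.50 to -0.07. Rab32 ranged from -0.46 to -0.12 and Rab3d from -0.42 to -0.09. Rab28, Rab40c, Rab34, Rab23 and Rab20, of mixed or less settled roles, had a median of -0.01 (2 positive).

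**Figure D4:**
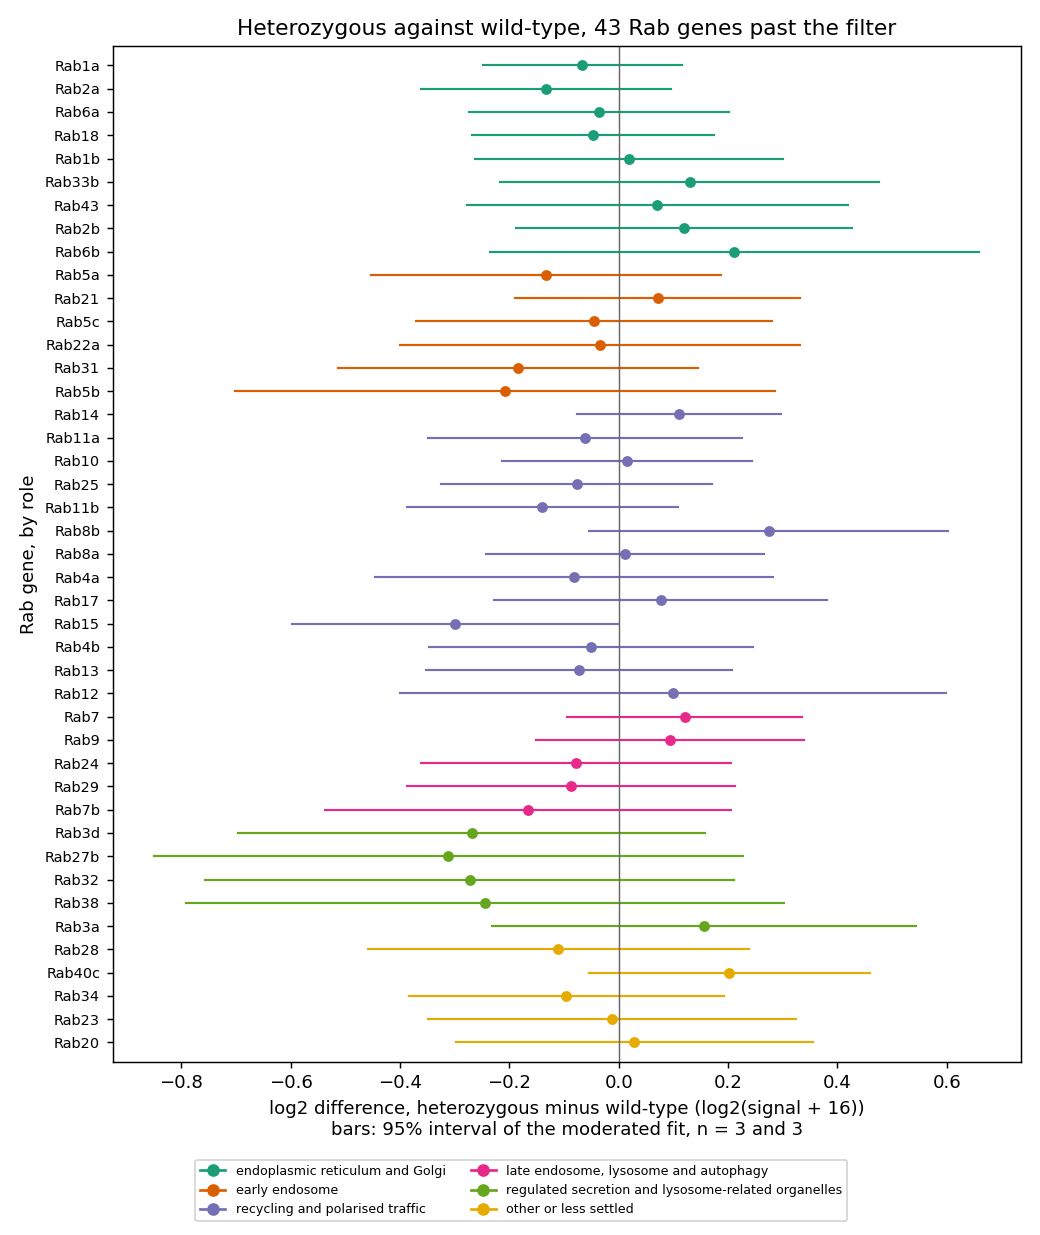
Difference in log2(signal + 16), heterozygous minus wild-type, for 43 Rab genes by role, with the 95% interval of the limma fit (3 arrays per genotype). Only the interval of Rab15 leaves out 0, narrowly. The secretory genes Rab3d, Rab27b, Rab32 and Rab38 have negative values and wide intervals, while secretory Rab3a is positive (0.16). Rab12, a recycling gene, also has a wide interval (-0.40 to 0.60).

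Rab15, which slows receptor recycling from early endosomes and is enriched in neurons, had the lowest p among Rab genes. Its probe set, 1417829_a_at, read 688.3, 748.8 and 905.5 in wild-type and 639.3, 633.4 and 610.8 in heterozygous arrays. All 3 heterozygous values lay below all 3 wild-type values, and wild-type replicate 3 stood apart above the rest. The log2 difference was -0.30 (SE 0.13, 95% interval -0.60 to -0.0006), with an unadjusted p of 0.0496 and an adjusted p of 0.874 in limma. Without wild-type replicate 3 it was -0.19 (limma unadjusted p = 0.182). Within each genotype Rab15 was highest where the enteric neuron sum was highest, with heterozygous replicates 1 and 2 nearly level at 639.3 and 633.4. The neuron sum was not lower in heterozygous arrays, at 1229.2 to 1706 against 937 to 1551.9 in wild-type. The part of those cells in the Rab15 value was not tested. Rab15 has 1 probe set, so no other reading of it was at hand.

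Rab15 lies near Mthfd1 on chromosome 12, with 9 protein-coding genes between them in the GRCm38.p6 gene table. Of those 9, 6 had a probe set of their own and 4 passed the filter: Zbtb1 (log2 difference 0.10), Hspa2 (-0.16), Churc1 (0.05) and Gpx2 (0.01). None of the 4 had an unadjusted p under 0.05 in limma, and in none did the genotypes fail to overlap. Zbtb25 and Sptb were below the filter and overlapped. The other Rab gene of the array on chromosome 12 is Rab10, with 320 protein-coding genes between it and Mthfd1, and its brightest probe set differed by 0.02.

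Rab40c, of a Rab subfamily that recruits a ubiquitin ligase, at probe set 1424331_at read 623.6, 610.7 and 607.7 in wild-type and 673.3, 693.5 and 762.7 in heterozygous arrays. The genotypes did not overlap, and the log2 difference was 0.20 (SE 0.11; limma unadjusted p = 0.109, adjusted p = 0.911). Its other probe set, below the filter, read 38.8 to 45.4 and 56.1 to 91.7, also without overlap. Rab8b read 992.6, 857.1 and 1123.7, and 1057.9, 1166.2 and 1382.2, which overlap (0.27, SE 0.15; limma unadjusted p = 0.0914). Among genes below the filter, Rab27a, which docks secretory lysosomes, read 79.7, 81.3 and 96.9, and 57.1, 48.5 and 48.4. Its other 2 probe sets were 27.9 to 44.7 in wild-type and 18.6 to 54.4 in heterozygous arrays, so this separation rests on 1 dim probe set.

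Several Rab genes are read by more than 1 probe set, and these did not always give the same picture. Of 18 genes with at least 2 past the filter, 11 had differences of 1 sign throughout and 7 had both signs: Rab3d, Rab11a, Rab14, Rab17, Rab18, Rab22a and Rab34. Over all 72 probe sets 4 had an unadjusted p under 0.05 (1 higher and 3 lower), beside 5.69% of all probe sets (3.12% higher and 2.56% lower). The genotypes did not overlap for 5 (3 higher and 2 lower), beside 10.4% of all (5.26% higher and 5.1% lower). Suffixes in the probe set names mark those that match several genes (_s_at, 5 of the 95) or may cross-hybridise (_x_at, 2 of the 95), and the brightest readings of Rab14 and Rab4a are of the first kind.

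For Rab2a the sign was shared and the size was not. All 6 of its probe sets past the filter were lower in heterozygous colon, from -0.06 to -0.55. The brightest differed by -0.13 (SE 0.10; limma unadjusted p = 0.223). The second dimmest of them, 1418623_at, read 642.1, 721.5 and 695 in wild-type and 596, 567.3 and 491.6 in heterozygous arrays, without overlap (-0.31, SE 0.13; limma unadjusted p = 0.035, adjusted p = 0.821). The dimmest of the 6 read 239, 301 and 263, and 166.6, 245.3 and 133.7, and overlapped in heterozygous replicate 2 (-0.55; limma unadjusted p = 0.0261). All 6 read 1 gene in the same mice, so they are not separate tests, and 2 of the 6 carry the suffix of probe sets that match several genes.

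Rab10 differed between probe sets in size. Its dimmest probe set, 1422664_at, read 821.8, 810.4 and 853.4 in wild-type and 1148.1, 1011.3 and 1060.2 in heterozygous arrays, without overlap. That was the lowest unadjusted p of any Rab probe set (log2 0.37, SE 0.11; limma unadjusted p = 0.00891, adjusted p = 0.685). The other 2 differed by 0.02 and 0.06 with overlapping genotypes. For Rab14, 1 of 5 probe sets did not overlap, at 1022.7 to 1186.3 and 1293.6 to 1321.3 (0.21; limma unadjusted p = 0.0849), while the rest ran from -0.04 to 0.11. For Rab3d, 3 probe sets were lower in heterozygous arrays, to -0.37, and the dimmest was 0.10, all with overlap.

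The other genes with both signs were close to level at their brightest probe set. Rab17 read 1007.9, 986 and 806.9 in wild-type and 1087, 977.5 and 887.7 in heterozygous arrays (0.08). Rab22a, of early endosomes, read 421.5, 372.2 and 315.3, and 320, 333 and 431 (-0.03). Rab34, which acts at the Golgi and in cilium formation, read 383.4, 317.9 and 334.9, and 333.5, 310.3 and 320.4 (-0.10). The genotypes overlapped in all 3.

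**Figure D5:**
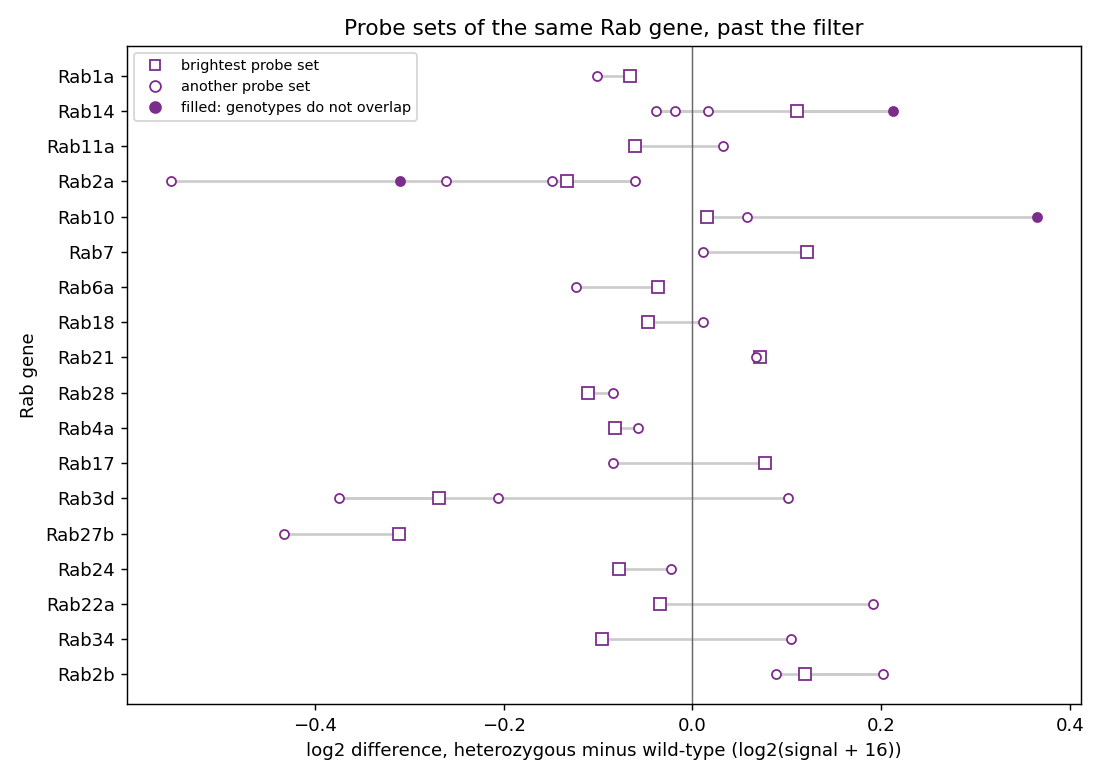
Log2 difference, heterozygous minus wild-type, for each probe set past the filter of the 18 Rab genes that have at least 2; squares are the brightest probe set, circles the others, and filled symbols are probe sets whose genotypes do not overlap. All 6 Rab2a probe sets lie below 0, and the filled Rab10 probe set at 0.37 stands away from the other 2.

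Genes that load, switch and read the Rab proteins were compared in the same fit. Of 138 listed, 82 were found with a probe set of their own and 68 were tested. None had an unadjusted p under 0.05 in limma, where 5.4% of all genes did. The genotypes did not overlap for 4 (all lower), Rabggta, Tbc1d1, Golga2 and Plin3, where 10.7% of all genes did not overlap (5.06% lower). The 6 tested GDI and prenylation genes had a median log2 difference of 0.02. Rabggta, a subunit of the enzyme that prenylates Rab proteins, read 182.6, 240.7 and 260.3 in wild-type and 174.7, 174.1 and 168.6 in heterozygous arrays, with the heterozygous values all below (-0.36, SE 0.16; limma unadjusted p = 0.0527, adjusted p = 0.874). Its partner Rabggtb differed by 0.06 and the prenylated Rab acceptor Rabac1 by -0.11.

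The 20 tested exchange factors had a median of 0.00, with 10 positive. Ccz1, part of the complex that activates Rab7, differed by -0.21, Dennd1a, for Rab35, by 0.35 and Dennd4c, for Rab10, by 0.21, each with overlap. The 14 GTPase-activating proteins had a median of -0.05, with 11 negative, where 3987 of all 8241 tested genes were negative. Among them Tbc1d1, which acts on Rabs of glucose transporter traffic, read 228.1 to 256.8 and 181 to 226.3, without overlap (-0.20; limma unadjusted p = 0.20), Tbc1d15, which acts on Rab7, differed by -0.29, and Tbc1d10a by -0.16. The 28 effectors had a median of -0.05, with 19 negative. Appl1, a Rab5 effector, differed by 0.28, Rilpl1, a partner of Rab8 and Rab10, by -0.54, and Ehbp1l1, a partner of Rab8, by -0.35, all with overlapping genotypes and limma adjusted p from 0.904 to 0.916. Golga2, a Golgi tether that binds Rab1, read 722.3 to 756.7 in wild-type and 654.1 to 699.7 in heterozygous arrays (-0.13), and Plin3, a lipid droplet protein and Rab9 partner, 512.8 to 562.2 and 487.7 to 512.4 (-0.09).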

How the data were processed

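Total RNA of proximal colon from 3 wild-type and 3 heterozygous mice was amplified with biotin label, per the labels' protocols, and read on 1 array per sample. The authors deposited linear intensities, 1 per probe set and array, and the submitters' processing notes name GCOS, with no version or settings given. Tested on the file, each array's mean without the top and bottom 2% was 500.2, so arrays had been scaled to a common level.

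Control probe sets (64 of 22690) were left out. Names came from the platform annotation: 20380 probe sets had 1 symbol, 691 several and 1555 none. Updating through GRCm38.p6 gene numbers altered 0. Values entered as log2(intensity + 16). Array medians differed by 0.09, under a bound of 0.3, so no further normalization was done. Probe sets with a mean under the 40th percentile were left out. The test was limma 3.58.1 (R 4.3.3; variance trend, two-sided, Benjamini-Hochberg over 13576 probe sets, threshold 0.05). A gene is its brightest probe set, and a gene's adjusted p is that of this probe set. The number of arrays limits precision. The steps were tested on simulated data.

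Named in full were the 10 brightest Rab genes, the 5 of largest spread, all with unadjusted p under 0.05, Rab15 and genes whose probe sets differed in sign, with up to 3 genes of each machinery list by p. Rab8b, Rab40c, Rab27a, Golga2, Plin3 and others given by range were added after their values were seen. Members and lists were chosen with earlier results of these data known. Promoter sequences are RefSeq's for GRCm38.p6. Alternatives covered pseudocount, filter, normalization, variance model, array weights, replicate block, probe set choice and each array left out.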

Additional observations from a re-analysis of the deposited data

How the results depend on the processing

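With 3 arrays per genotype, small differences of dim genes are beyond reach, and a p that misses the threshold does not show that Rab levels are alike. The number of probe sets past adjusted p 0.05 (0) was 2 with median centring, 8 with robust variance, 4 with array weights and 0 to 39 when 1 array was left out, with 39 when heterozygous replicate 1 was absent and 2 when wild-type replicate 3 was. None of the 19 Rab genes named in full passed it under the settings run for them. The count of Rab genes with unadjusted p under 0.05 (1) was 2 without the filter or with the mean of all probe sets, 0 without the variance trend, with array weights or with the replicate block, and 0 to 2 with 1 array left out. Rab genes without overlap (2) were 4 with median centring or the mean of all probe sets and 2 to 11 with 1 array left out, which makes separation easier (11 in the absence of wild-type replicate 3, and of heterozygous replicate 1, 6 or 7 for any other array save wild-type replicate 1). The median within-genotype SD (0.14) was 0.12 with the 60th percentile filter and 0.12 to 0.15 with 1 array left out. Machinery genes with unadjusted p under 0.05 (0) were 1 with quantile normalization, median centring, no variance trend or the mean of all probe sets, 2 with the replicate block and 1 to 2 with 1 array left out.

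The median Rab difference of -0.05 stayed between -0.06 and -0.02 in all settings run. Rab15 stayed negative in all 17, from -0.38 to -0.19, with an unadjusted p under 0.05 in 9. With 1 array left out the sign turned for some named genes, whose ranges were -0.21 to 0.051 for Rab11a, -0.042 to 0.087 for Rab10, -0.11 to 0.028 for Rab6a, -0.13 to 0.28 for Rab12, -0.023 to 0.15 for Rab17 and -0.16 to 0.062 for Rab22a. The arrays whose absence turned it were wild-type replicate 1 for Rab11a, Rab10 and Rab22a, wild-type replicate 2 for Rab12, wild-type replicate 3 for Rab17, and among heterozygous arrays replicate 1 for Rab6a and Rab22a, 2 for Rab22a and 3 for Rab10. With the mean of all probe sets it turned for Rab17 (-0.0039), Rab34 (0.0042) and Rab22a (0.078). The causes were not tested. Same-numbered arrays deviated together for number 2 (0.49) and not for 1 (-0.12) or 3 (0.04), which cannot settle whether the numbers are a pairing. The main fit used none, and under the replicate block Rab15 differed by -0.30 (limma unadjusted p = 0.0615). Leaving out an array for the secretory group was added after the data were seen.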
